A study of Mus musculus with 6 samples.

Results

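Pressure overload in hearts carrying a JMJD2A transgene was examined by setting 2 arrays of transgenic mice after thoracic aortic constriction (TAC) against 1 array of transgenic mice after sham surgery. These 3 arrays were taken by their labels from the 6 of the study. The other 3 held wild-type hearts, 1 sham and 2 TAC. All mice were FVB and their hearts were taken 3 weeks after surgery. The labels give an age of 8 weeks, whereas the design text counts the age in years. The transgene is described as heart specific; its promoter, its species of origin and the number of founder lines were not stated in the sources used here. It is also unstated whether 1 animal or several gave the RNA of an array, and p-values then reflect only how far these samples spread, which may be technical. Total RNA was copied into biotinylated cRNA and hybridised to Illumina bead arrays.

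TAC narrows the aorta and forces the left ventricle to pump against a higher pressure. Heart muscle responds by enlarging its cells, by returning to genes of the fetal heart such as skeletal alpha-actin and the natriuretic peptides, and by laying down matrix through fibroblasts, while genes of fuel oxidation are often reduced. JMJD2A, encoded by Kdm4a, is a demethylase of trimethylated lysines on histone H3, lysine 9 among them. Serum response factor (SRF) is a transcription factor of muscle and growth genes that binds the CArG box, a short element rich in A and T.

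Values are log2 intensities of the brightest probe of each gene symbol, and 11167 of 19057 genes lay above the intensity filter of 58.7. A difference of 1 on this scale is a doubling of signal. Nearly all signals carry some background, so differences of genes near the array median of 56.3 to 56.4 are understated. The ventricular muscle markers were all measured (14 of 14 with a probe passed the filter) and their summed intensity was 188314 on the sham array and 187139 and 199915 on the TAC arrays. The tested Kdm4a probe stood at 6.66 on the sham array and at 6.75 and 6.45 on TAC 1 and TAC 2, against 6.51 to 6.70 on wild-type arrays. A second probe read 7.03 on sham, 6.86 on TAC 1 and 6.32 on TAC 2, against 6.40 to 6.49 on wild-type arrays, and the remaining one, near background, 5.64, 5.67 and 5.41 against 5.49 to 5.80. Sham and TAC 1 were thus above all wild-type arrays by the second probe, and TAC 2 was below them by all 3. Whether any of the probes reads the transgene was not stated in the sources used here.

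The 3 arrays differed in a sex-linked transcript. Xist, the RNA that silences an X chromosome in female cells, stood at 5.41 on the sham array, at 10.36 on TAC 1 and at 11.03 on TAC 2. The X-linked demethylase gene Kdm6a, which escapes that silencing, was at 9.99 on the sham array and at 10.59 and 10.78 on the TAC arrays. The Y-linked genes Uty (6.37 against 5.92 and 6.12) and Kdm5d (6.44 against 5.52 and 5.65, below the filter) ran the other way. The labels give no sex, and whether an array carries another sample's label was not tested. Within the 3 transgenic arrays, surgery and sex cannot be told apart for any gene. Among wild-type arrays Xist was high on sham (10.50) and TAC 1 (10.50) and low on TAC 2 (5.38). Wild-type TAC 1 against sham is thus a pair of like Xist level, and its values are given beside some of the largest differences.

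The 2 TAC arrays differed in how far they stood from sham, and for many genes in side. Both lay above the sham array for 3473 genes (31.1%), both below for 3353 (30.0%), and on opposite sides for 4311 (38.6%). They share that 1 sham array, so an unusual value on it moves both differences alike. A common side for most genes is therefore no measure of agreement. On the wild-type arrays the shares were 34.4% above and 38.7% below on both. TAC 2 stood farther from sham: 164 genes were at least log2 1 above and 121 at least that much below, against 40 and 28 on TAC 1, and the SD of the differences over genes was 0.40 on TAC 2 and 0.29 on TAC 1. Differences of at least log2 1 on both arrays were seen for 20 genes above sham (0.179%) and 12 genes below (0.107%). Of the 20, TAC 2 had the larger difference for 18; of the 12, for 6. The genes nearest the limit were Ccn2 (smaller difference 1.01) and Clec11a (1.02) inside it, and Col14a1 (0.995) and Ptn (0.993) outside. No gene passed limma with Benjamini-Hochberg adjustment (0 of 11167, or 0.0%, smallest adjusted p = 0.215); 543 genes (4.86%) had an unadjusted p under 0.05.

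A fit of all 6 arrays with Xist level as a covariate takes the difference between high and low arrays from the wild-type TAC pair, 1 array of each. In it 0 genes passed limma (67 at an unadjusted p under 0.05). Of the 29 genes other than Xist with the largest differences shared by both TAC arrays, 27 kept their side of sham and 8 were still at least log2 1 away. Hspa1a (-1.66 against -1.43 without the covariate), Fgf6 (1.40 against 1.95), Aqp4 (-1.33 against -1.28) and Acta1 (1.06 against 1.11) were among the 8. Mmp14, above sham without the covariate, was at -0.26, and Snai3, below sham without it, at 0.23; both turned direction.

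**Figure D1:**
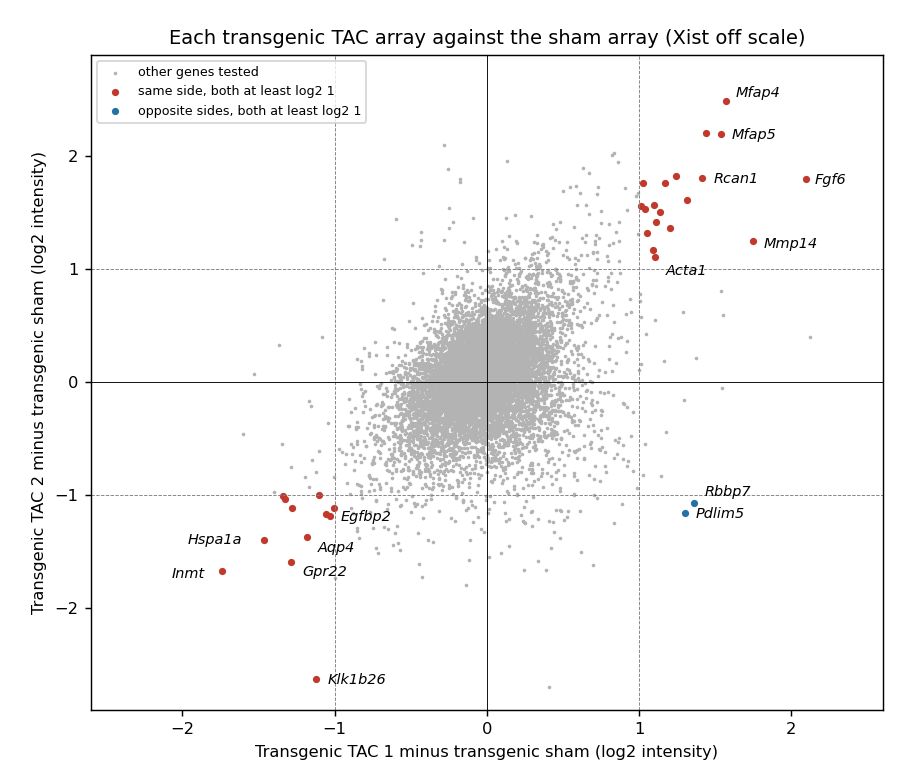
Log2 difference of transgenic TAC 1 (horizontal) and transgenic TAC 2 (vertical) from the transgenic sham array for each of 11167 genes; red points differ by at least log2 1 to the same side on both arrays and blue points to opposite sides. The 20 genes above and 12 below (Xist lies off the scale) sit in the upper right and lower left, and Pdlim5 and Rbbp7 in the lower right; both axes use the same sham array.

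The transgenic sham array was the lowest of all 6 arrays for 13 of the 20 genes above, where it was so for 18.4% of all genes tested, and the highest of all 6 for 10 of the 12 genes below, against 16.5% of all genes. As the genes were picked for their distance from that array, these shares are a description. They show how far each difference rests on 1 sham sample.

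Promoter sequences are shown for 4 genes from the groups described next: 2 CArG-box genes of the hypertrophic response that were higher after TAC and 2 heat shock genes that were lower. Each is the stretch of 250 bases before the RefSeq start site in build GRCm38.p6, written 5′ to 3′ along the gene's strand, with the matched element in capitals. Acta1 and Fhl1 have a CArG box 73 and 102 bases before the start. Hspa1a has 1 match to the heat shock elements GAANNTTC or TTCNNGAA, 104 bases before the start, and Hspe1 has 3 overlapping matches at 89, 84 and 79 bases. Acta1 lies on the minus strand at chr8:123894776-123895025, Fhl1 on the plus strand at chrX:56779433-56779682, Hspa1a on the minus strand at chr17:34972157-34972406 and Hspe1 on the plus strand at chr1:55087898-55088147.
Acta1: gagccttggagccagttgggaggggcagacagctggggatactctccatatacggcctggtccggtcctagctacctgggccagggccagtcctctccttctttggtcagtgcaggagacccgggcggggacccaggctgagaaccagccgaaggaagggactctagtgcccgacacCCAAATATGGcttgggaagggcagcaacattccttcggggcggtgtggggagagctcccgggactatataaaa
Fhl1: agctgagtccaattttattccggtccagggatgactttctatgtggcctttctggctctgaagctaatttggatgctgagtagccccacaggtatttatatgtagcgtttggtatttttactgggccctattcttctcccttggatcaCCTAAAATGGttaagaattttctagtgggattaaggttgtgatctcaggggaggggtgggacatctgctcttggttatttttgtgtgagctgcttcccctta
Hspa1a: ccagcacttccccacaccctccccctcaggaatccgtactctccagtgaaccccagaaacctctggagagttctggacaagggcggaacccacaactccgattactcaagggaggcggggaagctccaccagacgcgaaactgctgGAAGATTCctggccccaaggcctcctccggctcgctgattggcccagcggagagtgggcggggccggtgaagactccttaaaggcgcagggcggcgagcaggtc
Hspe1: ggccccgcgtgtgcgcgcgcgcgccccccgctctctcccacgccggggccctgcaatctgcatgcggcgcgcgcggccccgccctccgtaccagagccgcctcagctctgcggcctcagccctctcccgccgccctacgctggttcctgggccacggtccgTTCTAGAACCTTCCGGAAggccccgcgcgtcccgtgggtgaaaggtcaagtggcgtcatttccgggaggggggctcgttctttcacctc

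All 3 motifs read the same on both strands. A CArG box was found in 1.47% of 32851 RefSeq windows of this length, GAANNTTC in 6.69%, TTCNNGAA in 7.17% and either of these in 12.8%. Of the tested SRF targets, 20 of 26 had a window and 8 of these held a CArG box. The 8 were Srf, Acta1, Actc1, Fhl1, Fhl2, Cnn2, Vcl and Myl9. Genes with the box went both ways. Among them, Acta1 and Fhl1 were above sham on both TAC arrays and Srf, Fhl2 and Myl9 below, while Actc1 had a mean difference of 0.068. Of the fetal genes 3 of 18 held a CArG box. A heat shock element stood in 11 of the 22 heat shock genes that had a window, of 27 tested. Hspb1 and Hspb3, which were above sham on both TAC arrays, were among the 11. Hspe1 and its neighbour Hspd1 point away from each other, and the window of 1 of the 2 RefSeq starts of Hspd1 shares 215 bases with that of Hspe1; the other shares 0. List genes were counted if any of their windows matched, whereas the percentages are shares of single windows, so these are unlike measures. A match says only that the letters are present.

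Among fetal and hypertrophic genes, Acta1 and Nppb showed like steps on both arrays. Acta1, the skeletal alpha-actin of fetal heart muscle whose CArG box is shown above, stood at 12.85 on the sham array, 13.95 on TAC 1 and 13.96 on TAC 2. Both TAC arrays lay above sham by nearly the same amount, a mean log2 difference of 1.11 ± 0.14 (SE, 2 arrays against 1) or 2.15-fold, the smallest p in the comparison (limma adjusted p = 0.215). In the wild-type pair of like Xist level Acta1 was 1.10 higher after TAC, and on wild-type TAC 2 it was 1.05 higher. Nppb, which encodes brain natriuretic peptide, was at 13.80 on sham and at 14.56 and 14.51 on the TAC arrays. Its difference was 0.73 ± 0.14 (limma adjusted p = 0.795), and its mean TAC intensity of 23733 came close to the highest value of any probe, 25873; whether such signals are saturated was not tested.

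The other fetal genes differed in size and in how far both arrays went together. Nppa, the atrial natriuretic peptide gene, read 13.87 on sham and 14.33 and 14.45 after TAC. Fhl1, a stretch-sensing LIM protein of the sarcomere, was at 13.65, 14.15 and 13.95. For both genes the TAC arrays lay above sham, by 0.52 ± 0.14 for Nppa and 0.40 ± 0.17 for Fhl1. Uck2, a uridine kinase, was 0.94 and 0.74 above sham, and the titin-binding ankyrin repeat gene Ankrd23 0.54 and 0.69. Myh7, the slow myosin heavy chain of the fetal ventricle, was at 9.59 on sham and 11.72 on TAC 1. Its TAC arrays lay 2.12 and 0.40 above sham, farther from each other than TAC 2 was from sham. With Xist as a covariate Myh7 turned to the other side of sham, at -1.002 ± 0.96 against 1.26 without it. Its TAC difference, transgenic minus wild type, was -4.57 with the covariate and -1.18 without. Myh6, the adult fast myosin heavy chain, was 0.19 and 0.44 above sham by its brightest probe, whereas its other probe was 1.08 and 1.40 below. The 2 probes of Myh6 therefore gave opposite directions. Ankrd1, a stretch-induced ankyrin repeat protein, was 0.13 and 0.22 above sham by its brightest probe, which read 13.96 to 14.18. Its other probe was at 12.36 on sham and 0.70 and 0.33 higher after TAC.

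As a list, 12 of 18 fetal and hypertrophic genes lay above sham on both TAC arrays and 2 below, with a median difference of 0.49, beside 0.01 over all genes tested; 0 passed limma. The median was 0.19 on TAC 1 and 0.56 on TAC 2, and 0.07 with Xist as a covariate. Targets of SRF were split, with 9 of 26 above on both arrays and 8 below and a median of 0.02. Above were Acta1, Fhl1 and the CCN matricellular genes Ccn2 (12.48 on sham, 13.50 and 14.04 after TAC) and Ccn1 (7.03 on sham, 8.31 and 7.64 after TAC). Under the Xist covariate Ccn2 was at 0.32 and Ccn1 at 0.85. Below were the smooth muscle myosin light chain gene Myl9 (9.11 on sham, 8.38 and 8.64 after TAC) and the LIM protein gene Fhl2 (12.76, 12.39 and 11.77). Srf itself was 0.16 and 0.07 below sham. The smooth muscle genes Acta2 (0.47 and 0.10 below) and Myh11 (0.81 and 0.10 below) also stood under the sham array on both TAC arrays, while smooth muscle and pericyte markers as a list had 3 of 14 above and 3 below.

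Calcineurin is a calcium-activated phosphatase that drives hypertrophy through NFAT factors, and Rcan1 is both its inhibitor and its target gene. Rcan1 stood at 11.30 on the sham array, 12.71 on TAC 1 and 13.10 on TAC 2. Both TAC arrays were above sham, with a mean difference of 1.61 ± 0.30, or 3.06-fold (limma adjusted p = 0.795). In the wild-type pair of like Xist level the difference was 1.23. The other 2 Rcan1 probes gave mean differences of 0.26 and 1.93. The former, near background, was 0.28 above sham on TAC 1 and 0.23 on TAC 2. The latter was 3.31 above sham on TAC 1 and 0.54 on TAC 2, so the TAC arrays lay far apart by that probe. Of the other members, Nfatc4 was 0.53 and 0.96 above sham and Mef2d 0.38 and 0.46, while Dyrk1a, a kinase that opposes NFAT, was 0.47 and 0.36 below and the calcineurin subunit gene Ppp3r1 0.15 and 0.09 below. Over 17 genes of the pathway 7 were above on both arrays and 3 below, with a median of 0.03, or -0.02 where each gene took the median of its probes.

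**Figure D2:**
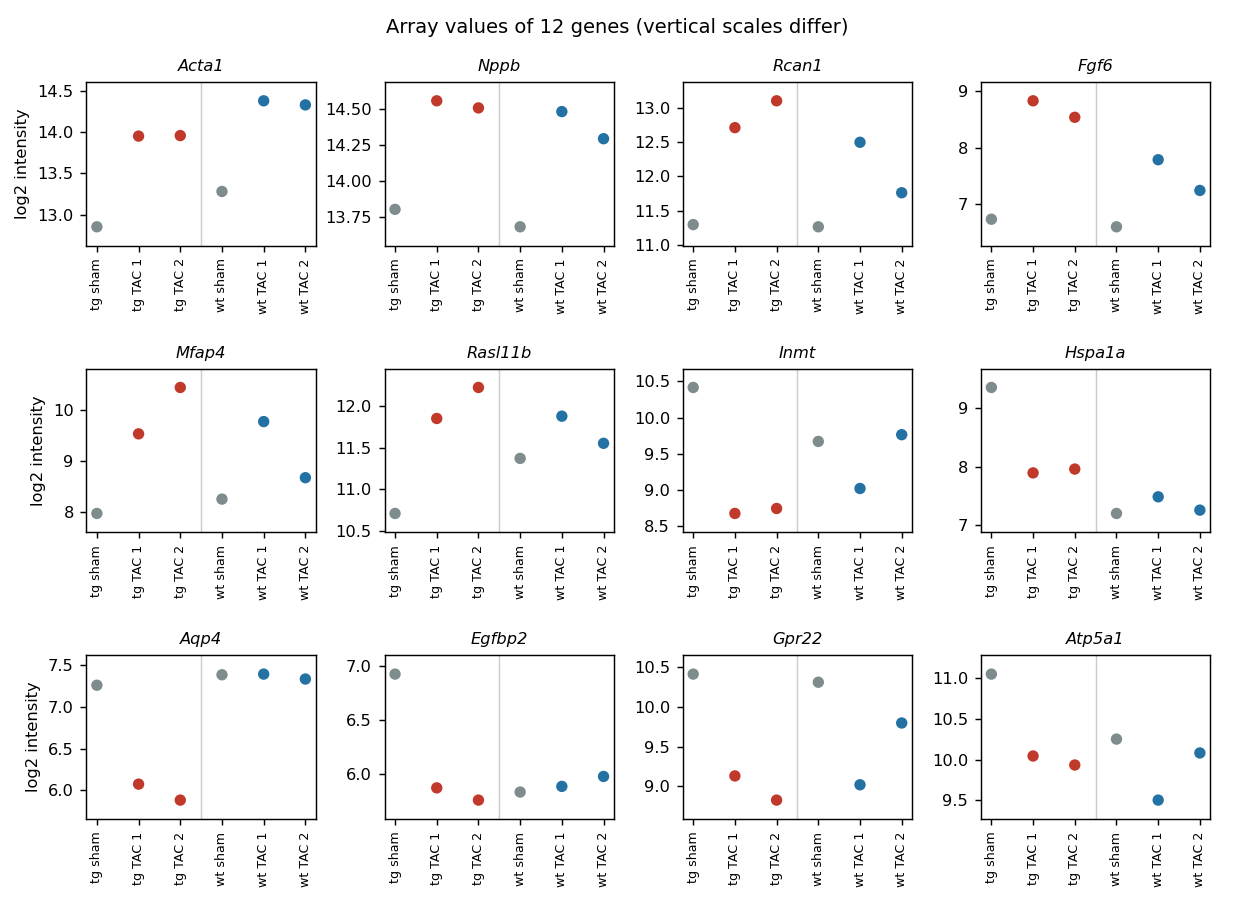
Log2 intensity of 12 genes on each array, with transgenic arrays left of the grey line (sham grey, TAC red) and wild-type arrays right of it (sham grey, TAC blue); vertical scales differ between panels. Acta1, Nppb, Rcan1, Fgf6, Mfap4 and Rasl11b lie above their sham array on both TAC arrays in both genotypes. Inmt, Hspa1a, Egfbp2, Gpr22 and Atp5a1 are highest on the transgenic sham array, and Aqp4 is lowest on both transgenic TAC arrays.

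Matrix genes made up the broadest group above sham. The microfibril proteins, which carry elastin and store growth factors, were among the largest. Mfap4 stood at 7.97 on sham, 9.54 on TAC 1 and 10.45 on TAC 2. Mfap5 was at 9.24, 10.77 and 11.43, and Mfap2 at 6.98, 8.08 and 8.56. In each case both TAC arrays lay above sham and TAC 2 was the higher, with mean differences of 2.03 ± 0.49 (4.09-fold), 1.87 ± 0.40 and 1.33 ± 0.47. The Xist covariate gave 0.92 for Mfap4, 0.94 for Mfap5 and 0.082 for Mfap2. Adamtsl2, a microfibril-binding protein, was at 6.62 on sham and at 8.06 and 8.82 after TAC. Its wild-type arrays overlapped between surgeries, with differences of 0.63 and -0.18, whereas Mfap4 (1.53 and 0.42), Mfap5 (1.77 and 0.84) and Mfap2 (1.39 and 0.14) were above sham on both wild-type TAC arrays too.

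Collagens, the load-bearing fibres and sheets of the matrix, were above sham on both arrays for 16 of 20 genes and below for 0, with a median of 0.85 (0.64 on TAC 1 and 1.20 on TAC 2), or 0.26 with Xist as a covariate. Col1a1, the main chain of scar collagen, was at 8.30 on sham, 9.17 on TAC 1 and 10.26 on TAC 2. The next in size were Col14a1 at 7.29, 8.29 and 8.97 and the basement membrane collagen Col15a1 at 9.28, 10.19 and 11.00. TAC 2 exceeded TAC 1 for all 3 of these. With Xist as a covariate Col1a1 was at 0.17, Col14a1 at -0.23 and Col15a1 at 0.50. Col1a2 was 0.09 and 0.57 above sham on TAC 1 and TAC 2. The 4 genes on both sides of sham were Col11a1, Col4a5, Col4a6 and Col5a3.

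Of 37 other matrix proteins 23 were above and 5 below on both arrays (median 0.48, or -0.014 with Xist as a covariate). Among those above was elastin, Eln, at 7.24 on sham and 7.94 and 8.03 after TAC (-0.35 with that covariate). The latent TGF-beta binding protein genes Ltbp1 (0.62 and 0.22 below) and Ltbp2 (0.21 and 0.30 below) went the other way. Enzymes of crosslinking and turnover were above for 16 of 24 and below for 2 (median 0.33, or 0.083 with that covariate). Mmp14, the membrane protease that activates the gelatinase Mmp2, was at 7.78 on sham, 9.53 on TAC 1 and 9.03 on TAC 2. Mmp2 stood at 11.25, 12.12 and 12.50, and the elastin crosslinking gene Loxl1 at 10.47, 11.28 and 11.87. All 6 of these TAC values were above sham. The protease inhibitor gene Timp1 was 0.92 and 1.52 above sham and Timp4 0.32 and 0.33 below. Under the Xist covariate Timp1 was at 0.068 and Timp4 at -0.15. Periostin, Postn, marks activated fibroblasts, but its probes lay below the filter here, at 5.70 on sham and 5.47 and 5.62 after TAC.

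In the pathway of TGF-beta, the cytokine that turns fibroblasts into matrix-producing cells, 13 of 22 genes were above and 4 below on both arrays (median 0.31, or 0.08 by the median over probes and 0.033 with Xist as a covariate). The ligand gene Tgfb2 was at 6.66 on sham and 7.25 and 8.23 after TAC, and the follistatin-like gene Fstl1 at 9.65, 10.26 and 11.33. Both lay above sham, more so on TAC 2. The ligand gene Tgfb1 was 0.31 below sham on TAC 1 and 0.36 above on TAC 2, and the signal transducer Smad2 was 0.21 and 0.30 below. Secreted or cell-surface proteins of the fibroblast lineage were also among the 20 genes, namely the peptidase inhibitor Pi16 (9.81 on sham, 10.84 and 11.34 after TAC), the lectin Clec11a (6.67, 7.69 and 8.43) and the collagen-binding integrin subunit Itga11 (8.11, 9.32 and 9.47).

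Fibroblast markers lay on the same side as the matrix genes: 15 of 18 were above sham on both arrays and 0 below, with a median of 0.74, or 0.19 with Xist as a covariate. Their summed intensity was 28281 on the sham array, 38576 on TAC 1 and 49150 on TAC 2. The list shares Col1a1, Col1a2, Col3a1, Mmp2, Loxl1, Mfap4 and other matrix genes with the matrix lists. Members outside them include the receptor gene Pdgfra (0.28 and 0.32 above) and the transcription factor gene Tcf21 (0.82 and 0.43 above), which define cardiac fibroblasts. In whole hearts, more cells of a type and more RNA per cell cannot be told apart, and the part of fibroblast number in the matrix values was not tested.

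**Figure D3:**
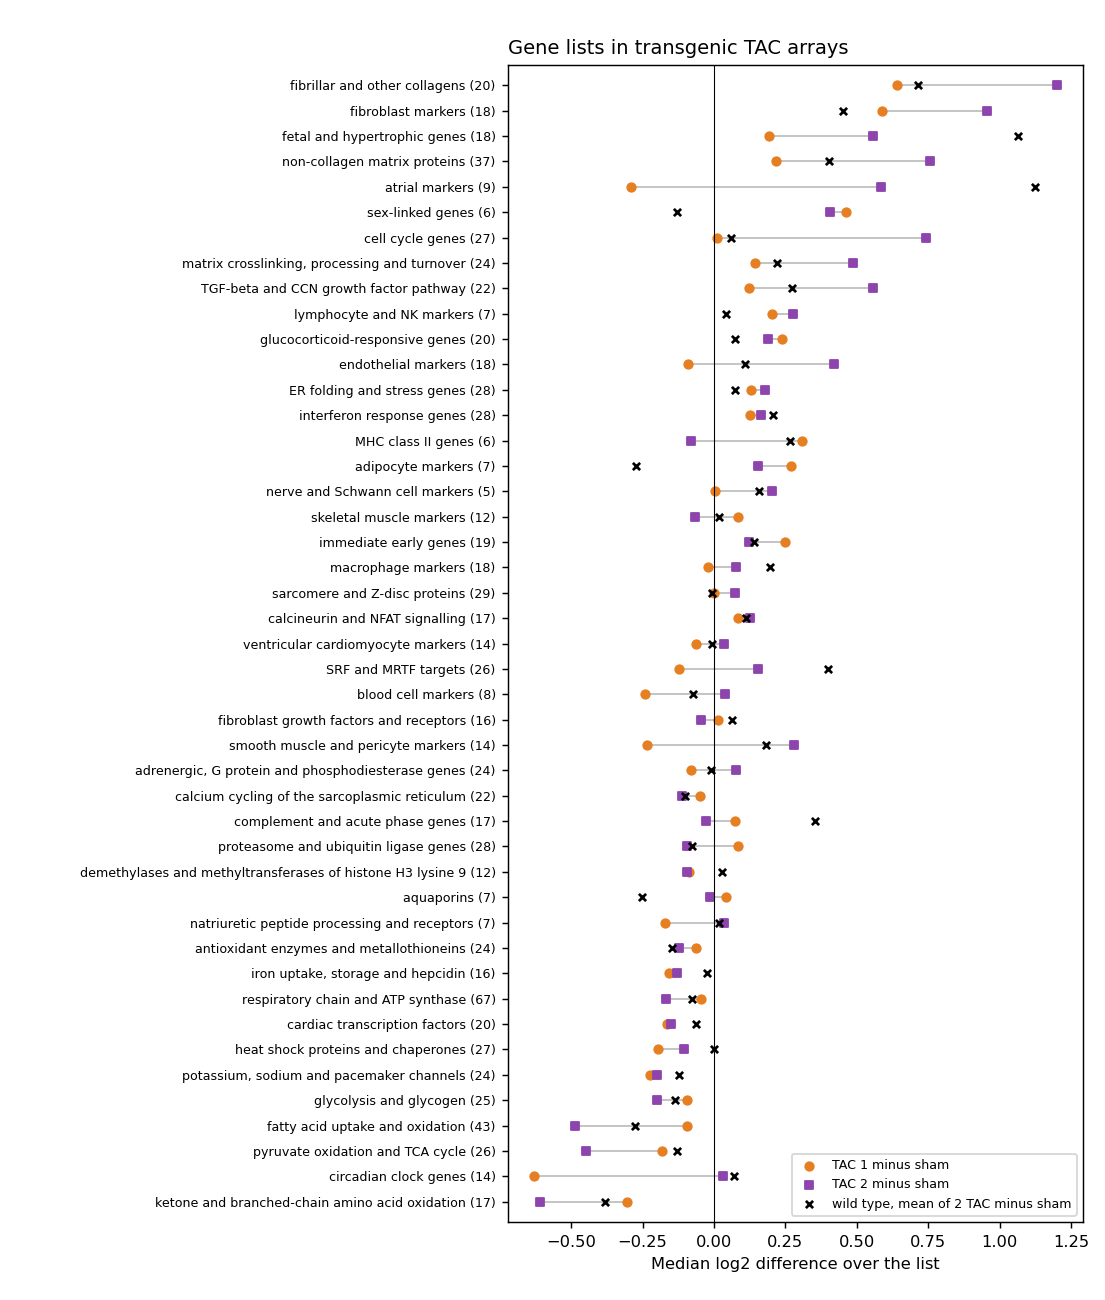
Median log2 difference from sham over the tested members of each gene list (number in brackets) on transgenic TAC 1 (circle) and TAC 2 (square), with the median of the wild-type difference (cross, mean of 2 TAC arrays against 1 sham). Lists are ordered by their median over both arrays, with ketone and branched-chain amino acid oxidation at the bottom. Collagens and fibroblast markers lie farthest right on both transgenic arrays, clock genes farthest left on TAC 1, and cell cycle, atrial and clock genes have medians on TAC 1 and TAC 2 that lie far apart.

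Growth and signalling genes completed the set above sham. Fgf6, a fibroblast growth factor of skeletal muscle, stood at 6.74 on sham, 8.83 on TAC 1 and 8.54 on TAC 2, a mean difference of 1.95 ± 0.30 or 3.86-fold (limma adjusted p = 0.674). Its second probe gave 1.47. Both TAC arrays also lay above all 3 wild-type arrays, where Fgf6 was 6.61 on sham and 7.79 and 7.25 after TAC. Fgf13 (0.47 and 1.10 below) and Fgf9 (0.45 and 0.65 below) went the other way, so that 6 of 16 fibroblast growth factor genes were above on both arrays and 6 below. Other skeletal muscle genes did not follow Fgf6 and Acta1: 5 of 12 were above and 4 below, with the muscle creatine kinase gene Ckm 0.27 and 0.41 below sham and the regulator Myog, close to background, 0.09 and 0.29 above.

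Rasl11b, a small GTPase of the Ras family, was at 10.71 on sham and 11.85 and 12.22 after TAC, 1.32 ± 0.23 higher (limma adjusted p = 0.713); its second probe gave 1.35. Meox1, a homeobox gene of mesenchymal cells, was at 9.14, 10.38 and 10.96, and Nkd2, an antagonist of Wnt signalling, at 6.76, 7.93 and 8.52. For these 3 genes both TAC arrays lay above sham and TAC 2 was the higher. The nuclear corepressor gene Hr was at 8.69 on sham and 9.78 and 9.86 after TAC, both within the wild-type range of 9.52 to 10.26. The stress gene Nupr1 was at 8.71, 9.77 and 10.03. Sphk1, which makes sphingosine-1-phosphate, was 1.11 and 1.42 above sham by its brightest probe; the median over its 3 probes gave -0.17.

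Among the 12 genes below sham, the methyltransferase gene Inmt and the heat shock gene Hspa1a were the largest in their smaller difference. Inmt stood at 10.42 on sham, 8.67 on TAC 1 and 8.74 on TAC 2, and its second probe gave a mean difference of -1.48. Both TAC arrays were below sham by -1.71 ± 0.32 (limma adjusted p = 0.795), and the transgenic sham value also exceeded the wild-type values of 9.67 on sham and 9.02 and 9.76 after TAC. Aqp4, a water channel, was at 7.26 on sham and at 6.08 and 5.88 after TAC, near the array median. Its difference was -1.28 ± 0.21 (limma adjusted p = 0.713). The 3 wild-type arrays read 7.33 to 7.39, so that the transgenic sham array stood near them and both transgenic TAC arrays below all 4 others. The second Aqp4 probe, near background, gave 0.19, and of the 7 aquaporins 3 were above and 3 below on both arrays.

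The kallikrein genes form a family of near-identical serine proteases, whose probes may share signal, and both named members were high on the transgenic sham array. Klk1b26 stood at 9.76 on sham, 8.65 on TAC 1 and 7.14 on TAC 2, and at 6.84 to 7.60 on wild-type arrays. Egfbp2 was at 6.92 on sham and 5.87 and 5.76 after TAC, while the wild-type arrays read 5.83 to 5.98. Both TAC arrays lay below sham for both genes, by 1.12 and 2.63 for Klk1b26 and by 1.05 and 1.17 for Egfbp2. For Egfbp2 they lay at the wild-type level, and the limma adjusted p was 0.215.

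Gpr22, an orphan receptor of heart muscle, was at 10.42 on sham, 9.13 on TAC 1 and 8.83 on TAC 2. Both TAC arrays were below sham, as they were in wild type (1.29 and 0.51 below). Tmprss13, a membrane serine protease (9.65 on sham, 8.63 and 8.47 after TAC), and Epop, a partner of elongin and Polycomb repressive complex (8.30, 6.96 and 7.29), were also below sham on both wild-type TAC arrays. The phosphoribosyl pyrophosphate synthetase gene Prps2 (7.92, 6.64 and 6.80) and the inositol pyrophosphate kinase gene Ppip5k2 (7.60, 6.49 and 6.60) were below sham on both arrays too. Their transgenic sham value lay above the wild-type values of 6.65 to 7.50 and 6.83 to 6.97. Snai3, a zinc finger repressor, was at 8.41 on sham and 7.08 and 7.37 after TAC. Just short of log2 1 on 1 of the TAC arrays were the carboxylesterase gene Ces1d (10.83, 9.84 and 9.10), the resistin-like gene Retnla (8.18, 6.78 and 7.21) and the periplakin gene Ppl (7.38, 6.21 and 6.45).

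Heat shock proteins fold other proteins and are induced by stress through heat shock factors. Hspa1a, an inducible 70 kDa chaperone, stood at 9.36 on the transgenic sham array, at 7.89 on TAC 1 and at 7.96 on TAC 2. Both TAC arrays were below sham, by -1.43 ± 0.26 (limma adjusted p = 0.713), and above the wild-type values of 7.20 on sham and 7.48 and 7.25 after TAC. The sham array was thus the highest of the 6. Hspa1b is a near-identical copy, and its own probe, close to background, was 0.10 and 0.23 below sham. The mitochondrial chaperonin pair of neighbouring genes followed: Hspe1 was at 9.53 on sham and 8.72 and 8.51 after TAC, and Hspd1 at 11.53, 10.99 and 10.86. The cochaperone gene Dnajb1 was at 11.81, 11.33 and 10.74. All of these TAC values were below sham. In the whole list 14 of 27 genes were below on both arrays and 3 above, with a median of -0.15. The small heat shock genes Hspb1 (0.23 and 0.37 above) and Hspb3 (0.09 and 0.12 above) were among the 3.

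**Figure D4:**
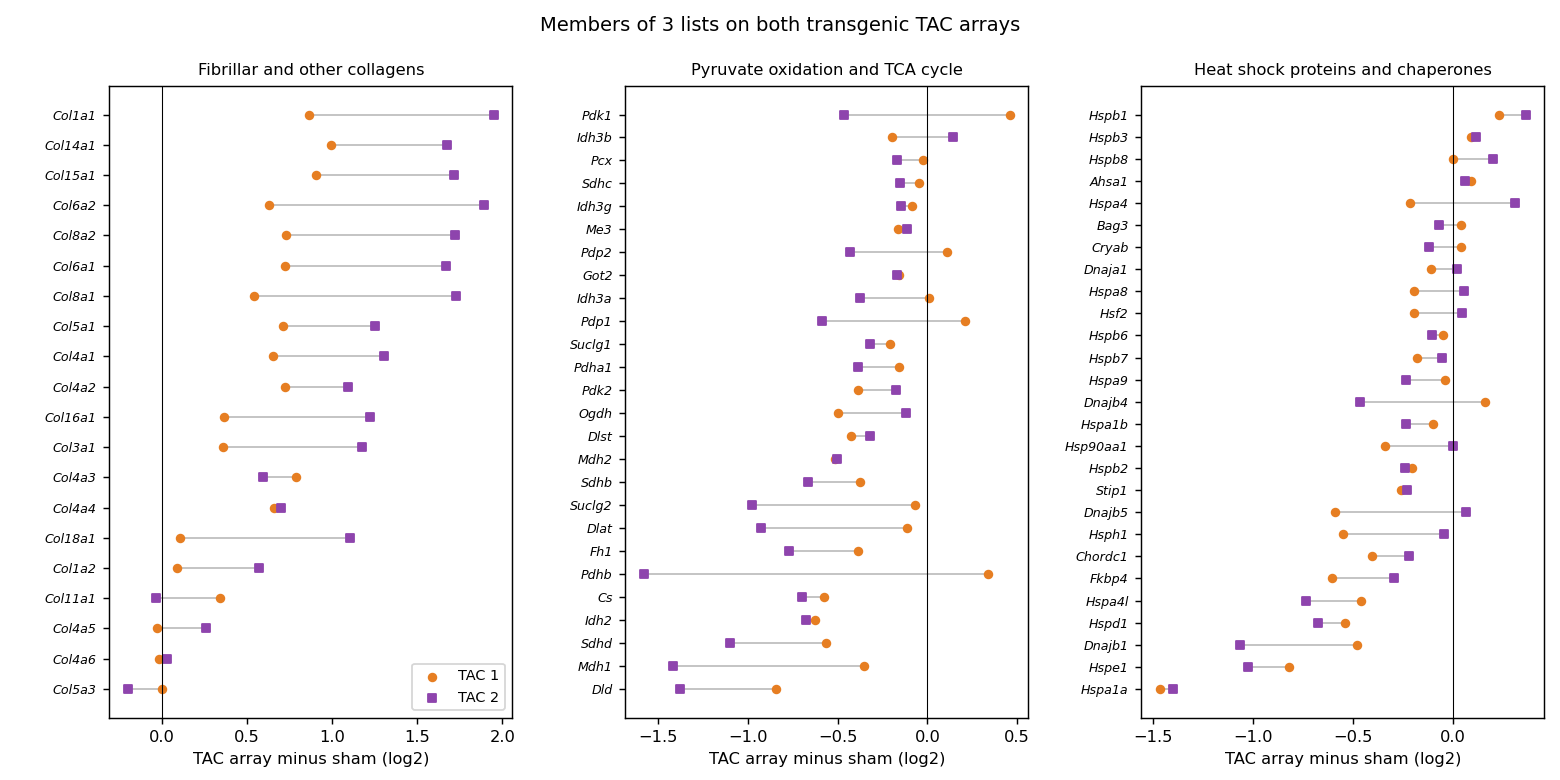
Log2 difference from the transgenic sham array on TAC 1 (circle) and TAC 2 (square) for each tested collagen, each gene of pyruvate oxidation and the TCA cycle, and each heat shock gene. Collagens lie right of 0 for 16 of 20 genes, TCA cycle genes left of 0 for 20 of 26 and heat shock genes left of 0 for 14 of 27, with Hspa1a the lowest.

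Genes of mitochondrial fuel use were mostly below sham. Pyruvate oxidation and the tricarboxylic acid (TCA) cycle, which turn pyruvate into carbon dioxide and reducing power, had 20 of 26 genes below on both arrays and 0 above (median -0.29). Cs, citrate synthase, stood at 12.89 on sham and 12.31 and 12.19 after TAC. Idh2, mitochondrial isocitrate dehydrogenase, was at 12.72, 12.10 and 12.05, and the succinate dehydrogenase subunit Sdhd at 8.70, 8.13 and 7.60. In these 3 genes both TAC arrays lay below sham by at least 0.57. Dld, the dehydrogenase subunit shared by several of these complexes, was at 7.95, 7.11 and 6.58, but its other probe gave 0.12. In wild type 20 of the 26 were below sham on both TAC arrays and 3 above, with a smaller median of -0.13.

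Branched-chain amino acid and ketone oxidation had 14 of 17 genes below on both arrays and 1, the ketone enzyme gene Bdh1, above (median -0.49, or -0.12 with Xist as a covariate). Aldh6a1, of valine breakdown, was at 9.78 on sham and 9.04 and 9.09 after TAC. The phosphatase gene Ppm1k, which activates the branched-chain dehydrogenase, was at 10.88, 10.47 and 9.83. The core subunit of that complex, Dbt, was 0.50 and 0.64 below sham, and the transaminase gene Bcat2 0.52 and 0.52 below. All of these stood below sham on both arrays, and in wild type 14 of 17 did so as well.

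Fatty acid uptake and oxidation showed 26 of 43 genes below and 4 above, with medians of -0.09 on TAC 1 and -0.49 on TAC 2 and, over both, -0.28, or -0.12 with Xist as a covariate. Hadhb, of the trifunctional protein that carries out the last steps of beta-oxidation, was at 12.99 on sham and 12.29 and 12.06 after TAC, 0.81 below on average (-0.81 ± 0.20). The isomerase gene Eci2 stood at 9.70, 8.93 and 8.73 and the fatty acid transporter gene Slc27a1 at 9.59, 9.11 and 8.79. Both TAC arrays were below sham for these 3 genes. Lpl, the lipase that frees fatty acids from lipoproteins, was 0.27 and 0.31 above. In wild type 35 of the 43 genes were below on both TAC arrays.

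Respiratory chain and ATP synthase genes were below for 38 of 67 and above for 5, with a small median of -0.13. Atp5a1, the alpha subunit of ATP synthase, was the 1 member past log2 1, at 11.05 on sham and 10.04 and 9.93 after TAC, though its other probe gave -0.13. The complex I subunits Ndufb9 (10.07, 9.14 and 9.35) and Ndufb4 (7.97, 7.30 and 7.26) followed. Uqcr11 (0.10 and 0.22 above) and Cox6b1 (0.09 and 0.12 above) had the largest smaller difference of the 5 above, both with signals near the top of the scale. Glycolysis and glycogen genes had 13 of 25 below and 4 above (median -0.21), with the phosphorylase kinase subunit Phkg1 at 7.86, 7.11 and 6.57 and the phosphorylase genes Pygb (0.34 and 0.61 below) and Pygm (0.26 and 0.40 below).

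Ion channel genes of heart muscle were mostly below sham. Of 24 potassium, sodium and pacemaker channel genes 14 were below on both arrays and 0 above (median -0.21, or -0.12 by the median over probes). Kcnh2, which carries the rapid delayed rectifier current, stood at 9.49 on sham and 8.65 and 8.58 after TAC. Kcnd2, of the transient outward current, was at 7.78, 7.13 and 6.69, and Kcnv2, a modifier subunit, at 8.30, 7.86 and 6.70. The TAC arrays lay below sham for all 3, as both wild-type TAC arrays did for theirs (0.39 and 0.30, 0.49 and 0.55, and 1.37 and 1.11 below). Summed channel intensity was 26662 on sham, 23144 on TAC 1 and 25007 on TAC 2.

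Calcium cycling genes were mixed, with 3 of 22 above and 7 below on both arrays and 12 not on 1 side. Pln, phospholamban, which restrains the calcium pump, was at 12.49 on sham and 11.94 and 11.72 after TAC. Ryr2, the calcium release channel, was at 12.24, 11.71 and 11.68. Both were below sham on each TAC array, as were the sodium-calcium exchanger gene Slc8a1 (0.34 and 0.25) and Sri, sorcin (0.30 and 0.27). Atp2a2, the pump itself, was 0.16 and 0.41 above sham by its brightest probe, but its probes had a median of -0.08. Corin, the protease that activates the natriuretic peptide Nppa encodes, was at 12.10, 11.76 and 11.50, and the peptide-degrading enzyme gene Mme was 0.41 and 0.69 below.

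Cardiac transcription factors had 12 of 20 genes below on both arrays and 3 above (median -0.14, or -0.03 by the median over probes). Hand2 stood at 7.32 on sham and 6.57 and 6.47 after TAC. Irx4, which marks the ventricle, was at 8.95, 8.29 and 8.22, and Gata6 at 11.24, 10.87 and 10.82. All 3 were below sham, whereas the muscle cofactor gene Vgll2 was 0.80 and 1.22 above. Of 12 tested demethylases and methyltransferases of histone H3 lysine 9, the residue JMJD2A acts on, 3 were above and 5 below. They stayed close to sham, with Kdm1a 0.23 and 0.10 below, Kdm7a 0.15 and 0.30 below and Kdm4c 0.10 and 0.26 above.

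Stress and defence lists gave small differences. Genes of endoplasmic reticulum folding and stress were above for 17 of 28 and below for 2 (median 0.18), with the transcription factor gene Atf3 0.54 and 0.53 above sham and the glutathione-degrading enzyme gene Chac1 0.83 and 0.53. Herpud1 (0.36 and 0.20 below) and Dnajb9 (0.34 and 0.34 below) were the 2 exceptions. Interferon response genes were above for 15 of 28 and below for 3 (median 0.18), led by the antiviral gene Rsad2, 0.72 and 0.97 above sham. Immediate early genes were above for 8 of 19 and below for 1, with Egr2 at 6.73, 7.73 and 7.44 and Egr3 at 8.14, 8.81 and 9.63. Glucocorticoid-responsive genes were above for 9 of 20 and below for 4, with the cell cycle inhibitor gene Cdkn1a 1.55 and 0.60 above sham and the lipase inhibitor gene Angptl4 at 6.64, 8.18 and 7.45.

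Iron genes were below for 8 of 16 and above for 2. Hamp2, a hepcidin gene, stood at 7.54 on sham and 6.65 and 6.43 after TAC, and the iron-responsive regulator Aco1 at 6.65, 6.18 and 6.22. Antioxidant genes had 10 of 24 below and 4 above, with the glutathione transferases Gsta4 (0.43 and 0.52 below) and Gstm1 (0.43 and 0.39 below) against the glucose-responsive gene Txnip (0.57 and 0.81 above) and the plasma peroxidase gene Gpx3 (0.34 and 0.73 above). Complement and acute phase genes were split at 6 above and 5 below of 17. Proteasome and ubiquitin ligase genes were split at 11 above and 10 below of 28.

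Most lists of other cell types also had more markers above sham than below, with medians smaller than that of fibroblasts. Of all genes tested 31.1% were above on both arrays and 30.0% below. The lists are small, and several of their shares above sham lay near that of all genes. Macrophage markers were above for 7 of 18 and below for 2, with summed intensities of 15562 on sham and 17966 and 18168 after TAC. Their median was -0.02 on TAC 1 and 0.08 on TAC 2. Endothelial markers were above for 8 of 18 and below for 1, with the junction gene Cldn5 at 9.07, 9.73 and 9.89 and a list median of -0.09 on TAC 1 and 0.42 on TAC 2. Lymphocyte markers were above for 4 of 7 and below for 1, all near background, adipocyte markers above for 4 of 7 and below for 0, and blood cell markers 2 above and 2 below of 8. Nerve and Schwann cell markers were above for 3 of 5 and below for 2, mesothelial markers above for 2 of 4, and genes of MHC class II above for 2 of 6.

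The medians of the TAC arrays lay farthest apart in 3 lists, for clock, cell cycle and atrial genes. Other lists had medians on opposite sides of sham by less, among them the endothelial markers and, at -0.23 on TAC 1 and 0.28 on TAC 2, the smooth muscle and pericyte markers. Among circadian clock genes the median was -0.63 on TAC 1 and 0.03 on TAC 2, with 6 of 14 genes below on both arrays and 3 above. Nr1d2, a repressor of the clock, was at 9.28 on sham, 7.93 on TAC 1 and 8.73 on TAC 2, and Cry2 at 8.06, 7.66 and 7.16. The genes Per2 and Arntl were chosen after their values were seen: Per2 was at 10.47, 8.94 and 10.54, and Arntl, the partner of Clock, at 5.67, 6.68 and 5.84. TAC 1 was the outlying array for both, low for Per2 and high for Arntl, while TAC 2 was 0.072 above sham for Per2 and 0.16 above for Arntl. The time of day at which hearts were taken was not stated in the sources used here.

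In cell cycle genes TAC 2 was the array that differed, with a median of 0.74 against 0.01 on TAC 1; 14 of 27 genes were above on both arrays and 1 below. Kif22, a mitotic kinesin, stood at 6.18 on sham, 6.62 on TAC 1 and 7.59 on TAC 2, and Cdc20, an activator of the anaphase-promoting complex, at 6.82, 7.03 and 7.83. Prc1, a protein of the dividing spindle named after its values were seen, was at 7.08, 7.21 and 9.05, though its second probe gave -0.24. TAC 2 exceeded both other arrays for each of these genes.

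Atrial markers split too, with medians of -0.29 on TAC 1 and 0.59 on TAC 2. The atrial light chain genes Myl4 (9.46 on sham, 9.03 and 10.80 after TAC) and Myl7 (5.95, 5.50 and 7.15) and the calcium pump inhibitor gene Sln (6.64, 6.04 and 8.09) were named after their values were seen. All 3 were below sham on TAC 1 and above it on TAC 2. Summed atrial marker intensity was 16920 on sham, 22447 on TAC 1 and 27037 on TAC 2, most of it from Nppa. In wild type 7 of 9 atrial markers were above sham on both TAC arrays. How much atrial tissue each sample held was not tested.

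Single genes could also move apart without their list. Pdlim5, a Z-disc adaptor protein, stood at 10.78 on sham, 12.08 on TAC 1 and 9.62 on TAC 2, and the histone-binding protein gene Rbbp7 at 8.91, 10.27 and 7.84. TAC 1 was above sham and TAC 2 below it by more than log2 1 in both. Next in size were Tom1 (0.99 and -0.94), Tspan3 (0.89 and -1.08), the elongation factor gene Eef2 (1.15 and -0.83) and the mitochondrial carrier gene Mtch2 (0.83 and -1.24). All 6 were higher on TAC 1. Of the other probes, 2 of Rbbp7 (1.21 and -1.07, and 1.22 and -1.15) and 2 of Eef2 (0.61 and -1.15, and 1.12 and -0.69) split the same way, whereas the 2 others of Rbbp7 and the dimmer probes of Pdlim5, Tspan3 and Mtch2 did not.

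Set beside wild-type hearts, Acta1 and Nppb stood above sham by like amounts in both genotypes, while Nppa and Fhl1 stood higher above sham in wild type; none of these differences between genotypes passed the test. Of the 20 genes above sham on both transgenic TAC arrays, 15 were also above on both wild-type TAC arrays (34.4% of all genes were) and 2 of them by at least log2 1 (0.206% of all genes). Of the 12 below, 5 were also below on both (38.7% of all genes) and 0 by at least log2 1 (0.0537% of all genes). In the difference of the responses, transgenic minus wild type, no gene passed limma (0 of 11167, or 0.0%, smallest adjusted p = 1.00; 183 genes, 1.64%, had an unadjusted p under 0.05). The difference was 0.03 ± 0.19 for Acta1 and 0.02 ± 0.20 for Nppb, against -0.87 ± 0.24 for Fhl1 and -0.60 ± 0.19 for Nppa. Fetal and hypertrophic genes had a median difference from sham of 1.06 in wild type, where 17 of 18 were above on both arrays and 1 below, beside 0.49 in transgenic hearts. Atrial markers moved with this contrast, with a median of 1.13 in wild type beside 0.38. The lists share 3 genes (Nppa, Myl4 and Myl7); without them the fetal medians were 0.71 in wild type and 0.54 in transgenic hearts, and the part of atrial tissue was not tested. The SRF targets had a median of 0.40 in wild type, with 22 of 26 above and 1 below, beside 0.02.

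The starting levels of these genes differed as well. Fhl1 was at 13.65 on the transgenic sham array and 12.56 on the wild-type sham array, and Nppa at 13.87 and 13.30. The TAC levels of both genotypes were thus closer than their responses. Fhl1 read 13.95 to 14.15 on transgenic and 13.71 to 13.97 on wild-type TAC arrays. These signals lie toward the top of the scale, where the highest intensity of any probe was 25873. The part of saturation in the contrast between genotypes was not tested. Complement and acute phase genes had 12 of 17 above sham on both arrays in wild type and 6 of 17 in transgenic hearts. The acute phase gene Serpina3n was at 10.30 on transgenic sham and 10.11 and 10.03 after TAC, against 9.84, 10.96 and 10.91 in wild type. It was higher on both TAC arrays in wild type and lower on both in transgenic hearts.

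Genes with the larger transgenic difference included Rasl11b (0.98 ± 0.33), Adamtsl2 (1.59 ± 0.58) and Fgf6 (1.03 ± 0.43), and among genes below sham Inmt (-1.43 ± 0.45), Aqp4 (-1.25 ± 0.30) and Ppip5k2 (-1.09 ± 0.30). None of these passed. The arrays of low Xist are transgenic sham and wild-type TAC 2, so Xist level moves with this difference too. With it as a covariate 0 genes passed (94 at an unadjusted p under 0.05), and the difference was -1.95 ± 0.75 for Hspa1a, -1.34 ± 0.59 for Aqp4, -1.27 ± 0.44 for Fhl1, 0.49 ± 0.61 for Rasl11b, 0.37 ± 0.91 for Adamtsl2, 0.22 ± 0.76 for Fgf6 and -0.31 ± 0.70 for Inmt.

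**Figure D5:**
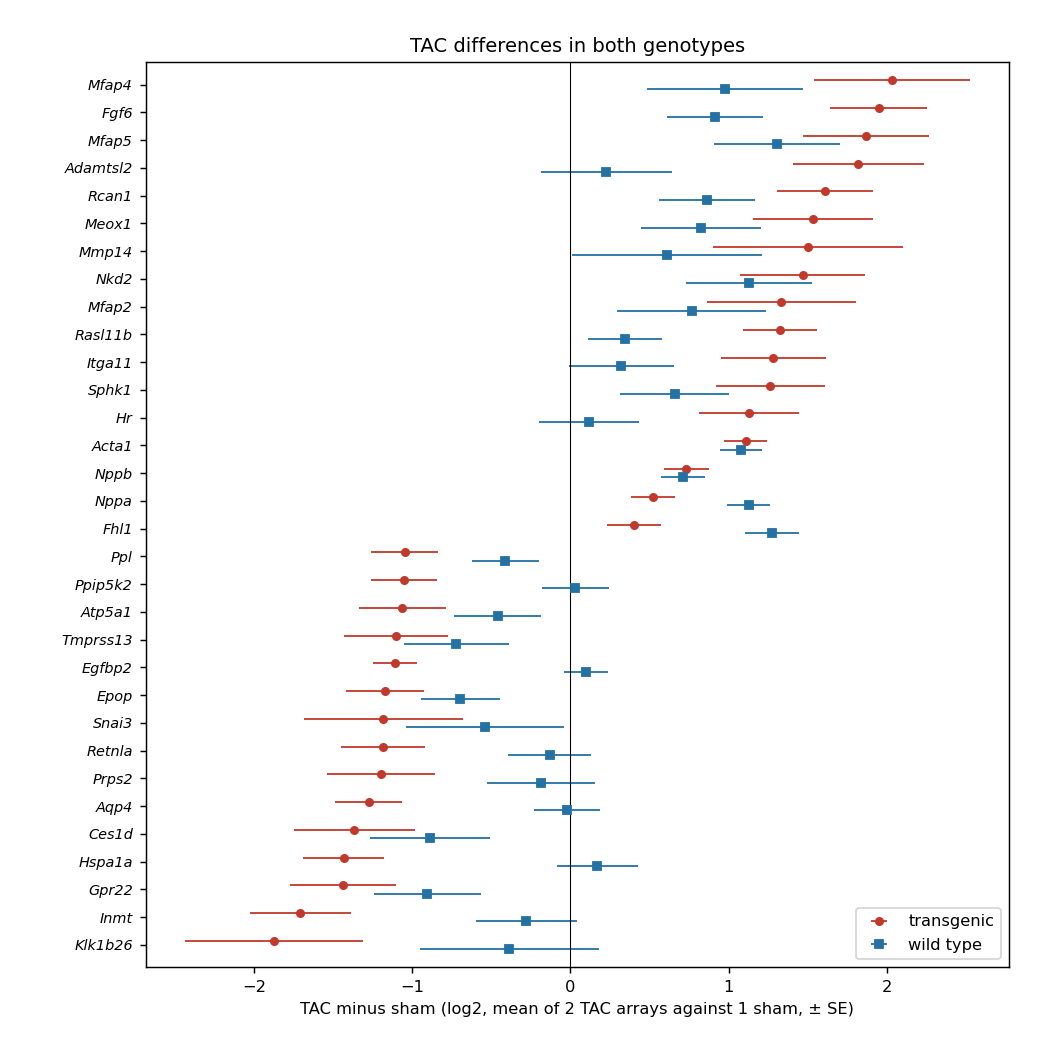
Mean log2 difference of 2 TAC arrays from 1 sham array (± SE of the limma fit) in transgenic (red circles) and wild-type hearts (blue squares) for the named genes with the largest differences on both transgenic TAC arrays and for Nppb, Nppa and Fhl1; Xist is left out. Acta1 and Nppb have like values in both genotypes, and Nppa and Fhl1 larger ones in wild type. Hspa1a, Aqp4, Egfbp2, Ppip5k2 and Retnla are among those that lie near 0 in wild type and below -1 in transgenic hearts.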

How the data were processed

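The deposited values are linear intensities, 1 for each probe on each array. The authors' software, background correction and normalization were not stated in the sources used here. Sorted columns differed by at most 0.0064 on the log2 scale. Values below 32 (12 of them) were set to 32 and log2 was taken; no further normalization or background subtraction was applied. The platform annotation gave 1 gene symbol for 34885 of the 45281 probes, several for 18 and none for 10378; symbols needed no update through the gene identifiers of a table of GRCm38.p6. Each of 19057 genes was represented by the probe of highest mean log2 intensity (9172 had more than 1 probe), and 11167 above the 50th percentile of probes with 1 symbol were tested.

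Each transgenic TAC array was set against the transgenic sham array, and a size of log2 1 on both was counted. A limma 3.58.1 fit (R 4.3.3) of all 6 arrays in 4 groups, with an intensity trend, gave SE and p-values with Benjamini-Hochberg adjustment over all genes tested and a threshold of 0.05. It had 2 residual and 6.25 prior degrees of freedom, all from the TAC pairs; the sham array was assumed to vary like them. The number of arrays limits the precision. Steps were tested on simulated data.

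The rule for named genes took the 15 largest differences shared by both TAC arrays in each direction, the 6 largest opposite ones, up to 6 members of each of 46 gene lists, and 14 genes always considered; predicted genes were passed over. Other genes were named after their values were seen. The members and lists were chosen with earlier results of these data known. Lists share genes and are described by counts and medians. Promoter windows and gene starts are from RefSeq (GRCm38.p6), as 250 bases before the start. Alternatives covered the probe summary, the intensity filter, background subtraction, cyclic loess, the size limit, the intensity trend, Xist as a covariate and arrays left out.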

Additional observations from a re-analysis of the deposited data

Results flagged for a closer look

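For 49 of 253 named genes both transgenic TAC arrays lay on one side of their sham array and both wild-type TAC arrays on the other, as did 1559 of all 11167 genes tested. For 7 of them both transgenic arrays were at least log2 0.6 from sham. The difference of the TAC differences, transgenic minus wild type on the log2 scale, was for these 7 -1.60 for Hspa1a, -1.21 for Egfbp2, 1.65 for Angptl4, -0.77 for Irx4, 1.12 for Cldn5, -2.28 for Ppbp and -1.13 for Myh8. It was tested as an interaction in limma, and none of the 49 passed after adjustment over 11167 genes (smallest adjusted p of any gene 1.00). Ppbp, a platelet chemokine gene, stood at 7.62 on transgenic sham and 6.73 and 6.98 after TAC, and was 0.87 and 2.16 above sham on the wild-type TAC arrays. Myh8, the perinatal myosin heavy chain gene, was at 10.04, 8.92 and 9.25, while the median over its probes gave 0.53. For Cldn5, a tight junction gene of endothelium, the wild-type TAC arrays were 0.59 and 0.17 below sham. Arrays of low Xist were transgenic sham and wild-type TAC 2, and with Xist as a covariate 0 genes passed too.

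The other 42 genes did not have both transgenic TAC arrays at least log2 0.6 from sham. Of muscle and contractile genes, the difference was 0.37 for Myh6, -0.94 for Mybpc2, -0.79 for Acta2, -1.28 for Myl9, -1.01 for Myh11, -1.08 for Pdlim3, 0.31 for Myl3, 0.43 for Myl1, -0.54 for the channel gene Kcna5, 0.68 for Mef2d and 0.31 for Myog. Of acute phase and complement genes it was -1.33 for Serpina3n, -1.84 for C4a, -0.40 for Saa3 and 0.56 for Hp. Of adipocyte and metabolic genes it was 1.88 for Adipoq, 1.47 for Scd1, 1.01 for Lep, 0.35 for Lipe, -0.66 for Pfkfb2, 0.52 for Pfkl and 0.26 for Tpi1. Of stress and hormone-responsive genes it was 1.10 for Trib3, 2.21 for Zbtb16, -0.31 for Glul and 1.11 for Txnip. Of cell cycle genes it was 0.96 for Kif22, 0.64 for Hmgb2, 0.86 for Cdc20 and -0.41 for Ccne1. Of chromatin and proteolysis genes it was -0.33 for Kdm3a, -0.39 for Kdm7a, 0.20 for Phf8, 1.05 for the X-linked Kdm6a, -0.68 for Fbxo32 and 0.34 for Psmd8. Of matrix, vessel, blood and nerve genes it was -0.31 for Ltbp2, 0.64 for Aqp1, -0.80 for Emcn, -0.40 for Mpeg1, 0.80 for Nkg7 and -0.60 for Sox10.

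Among 3361 probes without a gene name above the intensity filter, 3 lay at least log2 1 above sham on both transgenic TAC arrays (0.0893%) and 2 at least that much below (0.0595%).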

How the results depend on the processing

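The number of genes at least log2 1 above sham on both arrays (20) was 49 after subtraction of each array's 5th percentile and 92 at a limit of log2 0.6; with 1 TAC array left out it was 40 to 164. The number below (12) was 7 by the median over probes, 7 above the 75th percentile of intensity, 41 after subtraction and 95 at log2 0.6; with 1 TAC array left out it was 28 to 121. Genes past limma TAC against sham in transgenic hearts (0) were 1 without the intensity filter (Acta1, adjusted p = 0.0342), 1 with only the transgenic arrays (Xist, 0.0180) and 1 (Xist) without wild-type TAC 1 or TAC 2, settings chosen after seeing the data. With 1 transgenic TAC array left out the count was 0 to 239, the latter without TAC 1, a fit of 1 array against 1 with the spread of the wild-type pair alone, in which the lone array is assumed to vary like that pair. For the difference of the responses 1 gene (Xist) passed without wild-type TAC 1. With Xist as a covariate 0 genes passed in both. No paired analysis was possible because the sham arrays carry no number that ties them to a TAC array.

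Of 1235 values of named genes under 5 alternatives, 20 turned direction. By the median over probes these were Sphk1 (-0.17), Myh6 (-0.46), Atp2a2 (-0.078), Npr3 (-0.11), Nfatc1 (-0.0035), Lipe (-0.073), Tpi1 (-0.14), Ace (-0.17), Pde4b (-0.082), Trib3 (-0.045), Lyz1 (-0.0012) and Actc1 (-0.051), from above to below sham, and Pde5a (0.014), Txn1 (0.018), Ddx58 (0.0018), Kdm3a (0.086), Abcc9 (0.17), Myh8 (0.53) and Mbp (0.12), from below to above. Kdm4a was -0.22 to 0.087 with 1 transgenic TAC array left out. With Xist as a covariate, chosen for single genes and lists after seeing the data, Mmp14 (-0.26) and Snai3 (0.23) turned among the genes with the largest shared differences. Other named genes turned too, Myh7, Col14a1 and Eln among them. Under the 5 alternatives 25 of 230 list medians took the other sign, 17 of them with 1 transgenic TAC array left out. Among these were the atrial (0.38 to -0.29), endothelial (0.20 to -0.09), clock (-0.30 to 0.032) and SRF (0.016 to -0.12) lists. The causes were not tested. Per2, Arntl, Myl4, Myl7, Sln and Prc1 kept the sign of TAC 2 minus TAC 1 under the median over probes, subtraction and cyclic loess.

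With 1 sham array, every difference rests on that sample, and its own spread was not measured.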
